A study of Capra hircus with 6 samples.

Results

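The 10 genes described here are GFRA1 and RET, which encode the receptor for glial cell line-derived neurotrophic factor (GDNF), and 8 genes used as markers of spermatogonial stem cells: ID4, ETV5, FOXO1, TAF4B, THY1, ITGA6, EPCAM and CD9. They were matched by gene symbol, a rule that uses no measured value. The genes and the marker lists below were, however, chosen with earlier results of these data known. All 10 carried values among 16599 gene entries with values, and all 10 passed the filter on low counts that left 12665 genes for testing. Messenger RNA was sequenced from mGSCs-I-SB, cultured goat cells labelled as spermatogonial stem cells, in 2 libraries each of a line with hairpin RNA against UCHL1 (shUCHL1), a line with hairpin RNA against HSPA8 (shHSPA8) and a control hairpin line (shCON), which the labels list as WT. All lines grew in DMEM/F12 with fetal bovine serum and antibiotics, and the growth protocol in the labels names no growth factor. The number of hairpins per target is not stated, nor whether a line is 1 clone, nor whether its libraries are separate cultures. The p-values below therefore reflect library-to-library spread alone, and that spread may be technical.

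In the testis, GDNF from somatic cells binds GFRA1, a co-receptor anchored in the membrane of stem cells, and the complex activates the receptor tyrosine kinase RET. RET signals through SRC family kinases, PI3K with AKT, and RAS with MAP kinases, and in mouse stem cells this maintains self-renewal. ID4 and ETV5 are transcriptional regulators needed by mouse stem cells, FOXO1 is a forkhead factor held in check by AKT, and TAF4B is a gonad-enriched subunit of the general factor TFIID. THY1, ITGA6, EPCAM and CD9 are surface proteins used to enrich stem cells from mouse or rat testis, and each is also made by other cell types.

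Total counts ran from 15710532 to 16417274 per library, with 15181 and 15214 genes above 0 counts in shUCHL1, 14729 and 14790 in shHSPA8, and 14675 and 14666 in shCON. UCHL1 stood at 118 and 122 FPKM (fragments scaled to transcript length and library size, as deposited by the authors) in shUCHL1, against 488 and 534 FPKM in shCON. HSPA8 stood at 1269 and 1205 FPKM in shHSPA8, against 1941 and 1994 FPKM in shCON. Each targeted transcript was thus lower in its own line in both libraries. HSPA8 also rose in shUCHL1, with 2671 and 2724 FPKM (log2 fold change 0.38, SE 0.07, adjusted p = 0.0129 by the quasi-likelihood method of edgeR), a call lost without shUCHL1 replicate 1 (0.150) or 2 (0.175). A chi-square comparison of the 2 replicates of each line gave 2.38 per degree of freedom for shUCHL1, 11.8 for shHSPA8 and 21.8 for shCON, where sampling noise alone gives 1, so no library was a copy of another.

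The labelled cell type was set against marker lists. Of 21 pan-germ cell markers, 15 carried values and 4 passed the low-count filter. DDX4, the germ cell RNA helicase, lay between 0.14 and 0.67 FPKM over the 6 libraries, while MAEL, a protein of the piRNA pathway, lay between 31.7 and 49.3 FPKM. MAEL rose in shUCHL1 (log2 fold change 0.46, SE 0.10), with a Benjamini-Hochberg adjusted p of 0.0201 in the quasi-likelihood test of edgeR, written edgeR adjusted p from here on, a call lost without either shUCHL1 library (up to 0.212). Of 35 other stem cell and progenitor markers, 15 carried values and 7 were tested. ZBTB16, SALL4, NANOS2 and LIN28A, which define undifferentiated spermatogonia in other mammals, have blank entries in the deposited table. The meaning of a blank is not stated. No entry with values was 0 in all 6 libraries, so a blank may mean that no read was counted. Of the 15 genes of that list with values, 5 averaged above 1 FPKM. They were UCHL1 itself (118 to 534 FPKM), ITGB1 (850 to 1486 FPKM), ADGRA3 (21.4 to 32.4 FPKM), RARG (29.4 to 36.9 FPKM) and BMI1 (16.4 to 27.5 FPKM). The rest with values stayed under 1 FPKM in every library. Among them were MCAM (0.29 to 0.70 FPKM), POU5F1 (0 to 0.16 FPKM) and KIT (0 to 0.02 FPKM). In shUCHL1 CDH1 rose, a gene tested only through the shUCHL1 libraries. UCHL1, ITGB1 and ADGRA3 (-0.57 on the log2 scale, SE 0.10) fell there. The ITGB1 and ADGRA3 calls were lost without either shUCHL1 library. In shHSPA8 none of the 7 rose and BMI1 fell. Of all tested genes, 15.7% changed in shUCHL1 and 14.7% in shHSPA8. All 17 markers of peritubular myoid cells and fibroblasts were tested, with summed levels of 7820 to 8055 FPKM in shUCHL1, 9707 to 10320 FPKM in shHSPA8 and 7626 to 8617 FPKM in shCON. The pan-germ cell markers summed to 50.9 to 53.0 FPKM in shUCHL1, 41.8 to 44.5 FPKM in shHSPA8 and 34.4 to 37.5 FPKM in shCON, most of it MAEL. Of 20 Sertoli cell markers 12 were tested, 3 higher and 3 lower in shUCHL1 and 0 higher and 3 lower in shHSPA8. INHBB, among those higher in shUCHL1, passed the low-count filter only through the shUCHL1 libraries, and its call is a description only. Of the 16 with values, 9 averaged above 1 FPKM. VIM lay at 2401 to 3422 FPKM, GATA4 at 9.95 to 21.8 FPKM, SOX9 at 6.78 to 19.85 FPKM and AMH at 0.23 to 0.59 FPKM. Of 10 Leydig cell markers 7 carried values, 5 were tested and 4 averaged above 1 FPKM. The entry matched to CYP11A1 lay at 1.04 to 5.77 FPKM and STAR at 0.35 to 0.59 FPKM. The entry matched to CYP17A1 lay at 0 to 0.05 FPKM and HSD17B3 at 0 to 0.18 FPKM. INSL3 and LHCGR have blank entries. Of those above 1 FPKM, NR5A1 is also on the Sertoli cell list and PDGFRA on the myoid cell and fibroblast list. CYP11A1 and NR5A1 rose in shUCHL1, and CYP11A1 in shHSPA8. Of all tested genes, 8.54% and 8.66% were higher and 7.15% and 6.02% lower in shUCHL1 and shHSPA8. Of 11 leukocyte markers 4 were tested. PTPRC lay at 0 to 0.04 FPKM, and LCP1, an actin-bundling protein, at 35 to 123 FPKM, CD14 at 11.03 to 19.26 FPKM and CD68 at 1.81 to 3.51 FPKM. In shUCHL1 LCP1 and CORO1A fell, and in shHSPA8 CD14 rose and LCP1 fell. The lists thus gave a mixed picture. DDX4 and most other pan-germ cell markers with values were under 1 FPKM, and MAEL was well above it. Of the 15 other stem cell and progenitor markers with values, 5 averaged above 1 FPKM, UCHL1 and ITGB1 among them. Contractile and matrix genes were abundant. Several Sertoli and Leydig cell markers were above 1 FPKM, while AMH, STAR and the CYP17A1 entry were under it. The label is kept as the submitters' name. In such bulk samples, fewer cells of a type and less RNA per cell cannot be told apart.

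**Figure D1:**
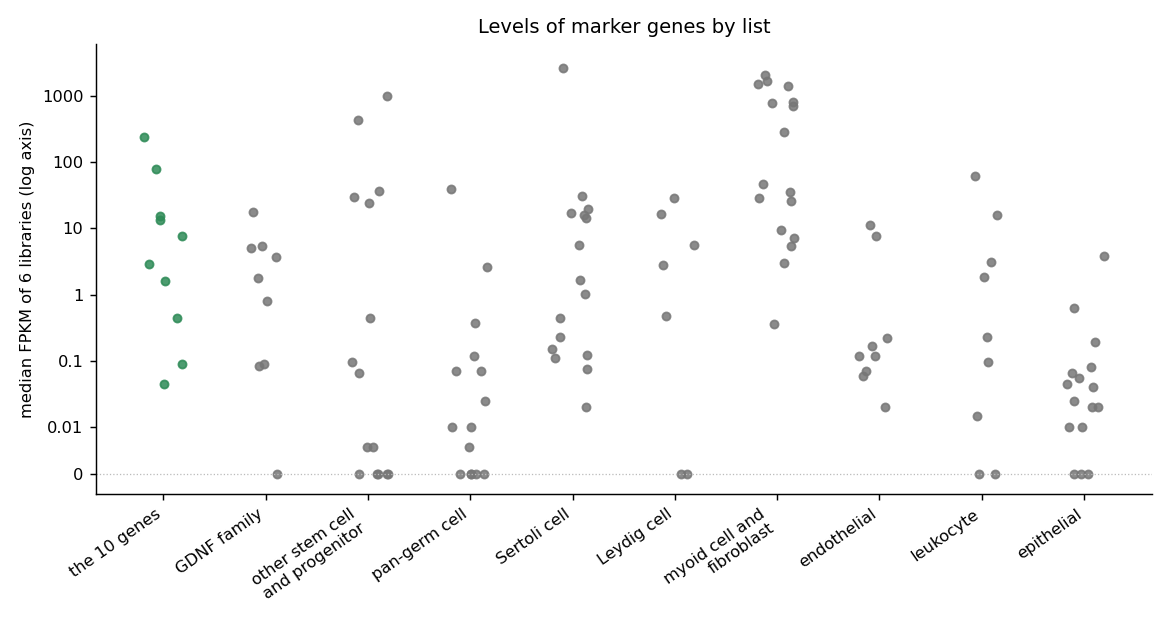
Median FPKM over the 6 libraries (log axis, 0 drawn on the dotted line) of every gene with values in each marker list, 1 point per gene. The 10 genes (green) run from GFRA1 at 0.045 FPKM to CD9 at 237 FPKM, some genes of other lists lie above CD9, most pan-germ cell markers lie at or near 0, and most myoid cell and fibroblast markers lie above 1 FPKM.

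Absolute levels separated the 10 genes by several orders of magnitude. CD9 was highest, at 213 to 256 FPKM, above 97.5% to 98.1% of all entries with values in each library. THY1 followed at 37.7 to 98.3 FPKM, and in every library CD9 and THY1 together held 85.7% to 90.7% of the summed FPKM of the 10 genes. ITGA6 (11.6 to 21.9 FPKM), FOXO1 (8.39 to 16.3 FPKM) and ETV5 (6.08 to 8.41 FPKM) formed the middle. The median entry had 5.77 to 6.50 FPKM, so these 3 genes lay above it in every library and the following 5 genes below it. ID4 ranged from 0.89 to 4.63 FPKM, TAF4B from 1.15 to 2.06 FPKM and EPCAM from 0.36 to 1.05 FPKM. The receptor genes were lowest, RET at 0.04 to 0.26 FPKM and GFRA1 at 0.02 to 0.12 FPKM. In that order of medians the ranges of neighbours overlapped for ITGA6 and FOXO1, FOXO1 and ETV5, ID4 and TAF4B, and RET and GFRA1, and were apart for the other neighbours.

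**Figure D2:**
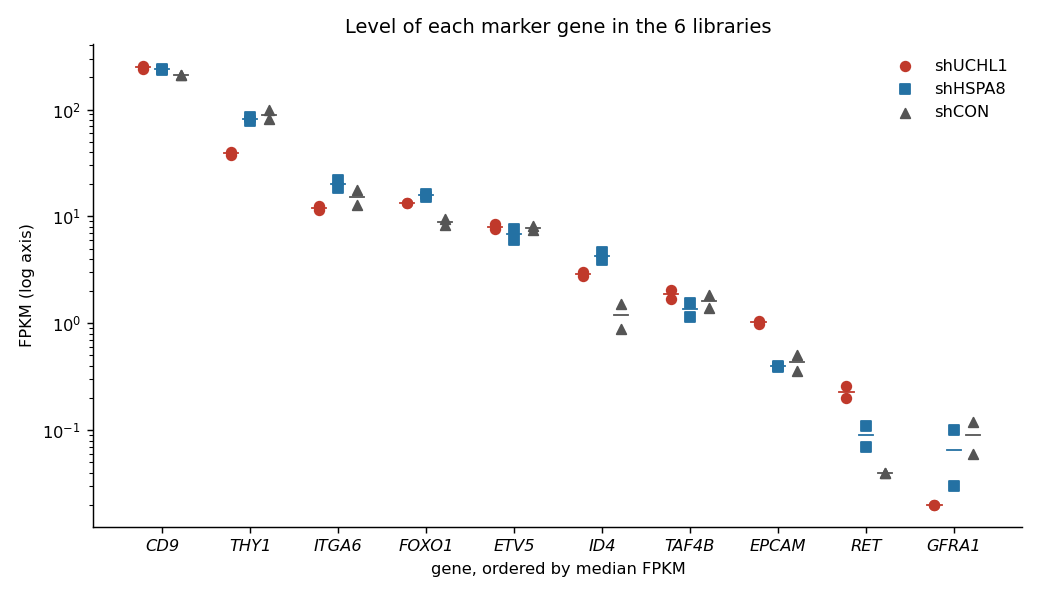
FPKM of the 10 genes (log axis), with 2 libraries per line as points and the line mean as a bar, genes ordered by their median. CD9 and THY1 stand highest, and RET and GFRA1 stay under 0.3 FPKM in every library.

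Neither subunit of the GDNF receptor reached 0.3 FPKM, and in shUCHL1 RET rose while the lower GFRA1 counts did not pass the test. RET, the signalling kinase, had 25 and 19 counts in shUCHL1, 7 and 11 in shHSPA8, and 4 and 4 in shCON. The counts summed to 44 in shUCHL1 (exact Poisson 95% interval 32.0 to 59.1), 18 in shHSPA8 (10.7 to 28.4) and 8 in shCON (3.45 to 15.8), where the intervals cover counting error only. Libraries of the 3 lines did not overlap, with shUCHL1 highest and shCON lowest. RET rose in shUCHL1 by a log2 fold change of 2.38 (SE 0.41, 5.22-fold, edgeR adjusted p = 0.0100). It passed the low-count filter through the shUCHL1 libraries and shHSPA8 replicate 2, and no shCON library reached the 0.622 CPM the filter asks for. Its call in shUCHL1, where it is high, is therefore a description only. In shHSPA8 the log2 fold change of RET was 1.18 (SE 0.49), with an edgeR adjusted p of 0.165. In shUCHL1 over shHSPA8 it was 1.20 (SE 0.35, edgeR adjusted p = 0.0621). The RET call in shUCHL1 was lost without shUCHL1 replicate 1 (edgeR adjusted p = 0.0887) and just lost with DESeq2 (adjusted p = 0.0515). More genes were detected in shUCHL1 than in the other lines, as given above, and the part of that in this low-level difference was not tested. In the RefSeq gene table an uncharacterised long non-coding RNA gene overlaps RET, and it has no entry with values in the deposited table. Without a stated strand setting, its reads and those of RET cannot be told apart.

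GFRA1, the ligand-binding co-receptor, had 3 and 3 counts in shUCHL1, 5 and 15 in shHSPA8, and 17 and 9 in shCON. Both shUCHL1 libraries lay below all other libraries, and shHSPA8 and shCON overlapped. GFRA1 passed the low-count filter through shHSPA8 replicate 2 and shCON replicate 1. No other library reached the 0.622 CPM the filter asks for, so its lower level in shUCHL1 is a description only. The log2 fold change in shUCHL1 was -2.11 (SE 0.71, 95% interval -3.79 to -0.43), with an edgeR adjusted p of 0.0935, and it rested on 6 counts over both shUCHL1 libraries. In shHSPA8 it was -0.34 (SE 0.55, edgeR adjusted p = 0.740), and its sign turned without shHSPA8 replicate 1 (0.26) or shCON replicate 1 (0.19). In shUCHL1 over shHSPA8 it was -1.77 (SE 0.75, edgeR adjusted p = 0.158).

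Transcripts of the ligand were above those of its receptor. GDNF itself lay at 2.94 and 3.04 FPKM in shUCHL1, 3.73 and 4.16 FPKM in shHSPA8, and 3.94 and 3.79 FPKM in shCON. It fell in shUCHL1 by 0.47 on the log2 scale (SE 0.13) with an edgeR adjusted p of 0.0483, a call lost in 10 of 12 alternatives, among them the fits without any 1 library (edgeR adjusted p up to 0.303). Of 11 listed ligands and other receptors of the GDNF family, GDNF included, 6 were tested. In shUCHL1 GAS1 and SDC3 rose and GDNF fell, where 15.7% of all tested genes changed, with a median log2 fold change of 0.33 against 0.01 over all tested genes. The SDC3 call was lost with DESeq2 and without shUCHL1 replicate 1 or 2 or shCON replicate 1 (edgeR adjusted p = 0.190, 0.268 and 0.0826). In shHSPA8 NCAM1 and GAS1 rose and none fell, where 14.7% of all tested genes changed, with a median of 0.39 against -0.003 over all tested genes. GAS1, a membrane-anchored protein related to the GDNF co-receptors that can bind RET, had 17.9 and 17.9 FPKM in shUCHL1, 24.1 and 23.6 FPKM in shHSPA8, and 8.72 and 8.56 FPKM in shCON. Its log2 fold change was 1.02 (SE 0.10) in shUCHL1 and 1.51 (SE 0.10) in shHSPA8, with edgeR adjusted p of 9.02e-04 and 1.45e-04, and both calls held in 12 of 12 alternatives.

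NCAM1, an adhesion molecule that can serve as a GDNF receptor together with GFRA1, had 4.35 and 4.72 FPKM in shUCHL1, 7.71 and 8.46 FPKM in shHSPA8, and 5.05 and 5.12 FPKM in shCON. It rose in shHSPA8 (log2 fold change 0.69, SE 0.11, edgeR adjusted p = 0.00701). That call was lost without shHSPA8 replicate 2, with an edgeR adjusted p of 0.0527. The other co-receptors were low: GFRA3 had 0.99 to 2.71 FPKM and did not pass the test, and GFRA2 and GFRA4 had 3 and 8 counts over all 6 libraries.

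Downstream of RET, 25 of 26 adaptors and kinases were tested. In shUCHL1, 2 rose (FYN and PIK3R1) and 3 fell (DOK4, SRC and MAPK3), where 15.7% of all tested genes changed. In shHSPA8, 1 rose (FYN) and 3 fell (GRB10, DOK4 and SRC), where 14.7% of all tested genes changed, so both counts lie near the background. The list medians were -0.02 in each comparison, against 0.01 for shUCHL1 and -0.003 for shHSPA8 over all tested genes. FYN, a SRC family kinase, rose in shUCHL1 (log2 fold change 1.32, SE 0.09) and in shHSPA8 (1.02, SE 0.09), while SRC fell (-0.59, SE 0.09, in shUCHL1 and -0.51, SE 0.09, in shHSPA8). The SRC calls were lost without either shUCHL1 library in shUCHL1 and without shHSPA8 replicate 2 in shHSPA8, with edgeR adjusted p up to 0.0970 and 0.0851.

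Among the transcriptional regulators, ID4 and FOXO1 rose in each knockdown line, and ETV5 and TAF4B did not pass the test in either. ID4, an inhibitor of DNA binding that marks mouse stem cells, had 2.77 and 3.04 FPKM in shUCHL1, 4.63 and 3.93 FPKM in shHSPA8, and 0.89 and 1.51 FPKM in shCON. The 3 lines did not overlap, with shHSPA8 highest and shCON lowest. In CPM (counts scaled to library size with TMM factors), ID4 averaged 6.08 ± 0.390 in shUCHL1, 9.52 ± 1.02 in shHSPA8 and 2.63 ± 0.949 in shCON (SD, n = 2 each). ID4 rose in shHSPA8 by a log2 fold change of 1.85 (SE 0.24, 3.60-fold, edgeR adjusted p = 0.00282), and this call held in 12 of 12 alternatives. In shUCHL1 it rose by 1.20 (SE 0.25, 2.30-fold, edgeR adjusted p = 0.0186). The shUCHL1 call was lost without shUCHL1 replicate 1 or 2, with edgeR adjusted p of 0.0934 and 0.123 and log2 fold changes of 1.25 and 1.12. The shCON libraries lay apart, at 1.96 and 3.31 CPM, and the log2 fold change in shUCHL1 was 0.85 without shCON replicate 1 and 1.62 without shCON replicate 2, called each time.

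The other inhibitors of DNA binding, chosen for mention because ID4 belongs to their family, were described beside it. ID1 lay between 183 and 377 FPKM, above the 4.63 FPKM that ID4 reached at most. It averaged 181 ± 5.81 CPM in shUCHL1, 251 ± 24.4 CPM in shHSPA8 and 151 ± 30.0 CPM in shCON (SD, n = 2 each). All of ID1 (0.73, SE 0.14), ID2 (0.75, SE 0.10) and ID3 (0.67, SE 0.11) rose on the log2 scale in shHSPA8. In shUCHL1 ID2 rose (0.81, SE 0.10), and ID1 (0.26, SE 0.14) and ID3 (0.14, SE 0.11) did not pass the test. Without shHSPA8 replicate 1 the shHSPA8 calls of ID1 and ID3 were lost, with edgeR adjusted p of 0.0837 and 0.0501, and without shUCHL1 replicate 2 the shUCHL1 call of ID2 was lost (0.0501).

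FOXO1 had 13.3 and 13.3 FPKM in shUCHL1, 15.2 and 16.3 FPKM in shHSPA8, and 9.39 and 8.39 FPKM in shCON. Again the lines did not overlap, in the same order as ID4. FOXO1 rose in shHSPA8 by a log2 fold change of 0.84 (SE 0.10, 1.79-fold, edgeR adjusted p = 0.00205), which held in 12 of 12 alternatives. In shUCHL1 it rose by 0.50 (SE 0.10, 1.42-fold, edgeR adjusted p = 0.0172), a call lost without either shUCHL1 library (edgeR adjusted p = 0.155 without replicate 1 and 0.154 without replicate 2). Of 11 other FOXO factors and known targets tested, 3 rose and 1 fell in shUCHL1, against 8.54% and 7.15% of all tested genes, and 2 rose and 3 fell in shHSPA8, against 8.66% and 6.02%. TXNIP, an inhibitor of thioredoxin, rose in shUCHL1 (log2 fold change 1.45, SE 0.10) and in shHSPA8 (1.39, SE 0.10), and CITED2, a transcriptional co-regulator, fell in shUCHL1 (-0.63, SE 0.09) and in shHSPA8 (-0.81, SE 0.09). The CITED2 call in shUCHL1 was lost without either shUCHL1 library (edgeR adjusted p up to 0.0769).

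ETV5, an ETS factor that GDNF and FGF2 induce in cultured mouse germ cells, had 8.41 and 7.62 FPKM in shUCHL1, 6.08 and 7.59 FPKM in shHSPA8, and 8.12 and 7.44 FPKM in shCON. The libraries of each knockdown line overlapped those of shCON. Its log2 fold change was -0.03 in shUCHL1 (95% interval -0.39 to 0.33) and -0.17 in shHSPA8 (95% interval -0.54 to 0.19), with edgeR adjusted p of 0.935 and 0.514. TAF4B had 2.06 and 1.69 FPKM in shUCHL1, 1.15 and 1.55 FPKM in shHSPA8, and 1.86 and 1.40 FPKM in shCON. Its libraries overlapped between each knockdown line and shCON. The log2 fold change of TAF4B was 0.12 in shUCHL1 (95% interval -0.39 to 0.64) and -0.25 in shHSPA8 (95% interval -0.78 to 0.28), with edgeR adjusted p of 0.762 and 0.519.

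Genes that respond to GDNF or FGF2 in cultured mouse stem cells did not share 1 direction. Of 18, 14 were tested, and BCL6B, LHX1, POU3F1 and EGR2 fell below the low-count filter. In shUCHL1, 3 rose (CXCR4, ID2 and KLF4) and 2 fell (EGR3 and SPRY4), where 15.7% of all tested genes changed, with a median log2 fold change of 0.09 against 0.01 over all tested genes. In shHSPA8, 5 rose (ID1, ID2, ID3, DUSP6 and CCND2) and 1 fell (KLF4), where 14.7% of all tested genes changed, with a median of 0.06 against -0.003. KLF4, a pluripotency transcription factor, thus rose in shUCHL1 (1.47, SE 0.10) and fell in shHSPA8 (-0.57, SE 0.11). The shHSPA8 call was lost without either shHSPA8 library (edgeR adjusted p up to 0.0890) and with only the 2 lines compared (0.0552). SPRY4, a feedback inhibitor of receptor tyrosine kinases, fell in shUCHL1 (-0.86, SE 0.10). The CXCR4 call was lost with DESeq2 (adjusted p = 0.0716) and, by edgeR adjusted p, without shUCHL1 replicate 1 (0.207), shUCHL1 replicate 2 (0.113) or shCON replicate 2 (0.0612). ETV1 and ETV4, the relatives of ETV5, did not pass the test in either line.

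The surface markers behaved differently from one another: THY1 fell and EPCAM rose in shUCHL1 with no call in shHSPA8, ITGA6 differed between the knockdown lines, and CD9 did not pass any test. THY1, a membrane-anchored glycoprotein also made by fibroblasts, had 37.7 and 40.2 FPKM in shUCHL1, 86.0 and 77.9 FPKM in shHSPA8, and 81.6 and 98.3 FPKM in shCON. Both shUCHL1 libraries lay below all others, and shHSPA8 overlapped shCON. THY1 averaged 63.7 ± 3.05 CPM in shUCHL1, 142 ± 8.96 CPM in shHSPA8 and 154 ± 20.2 CPM in shCON (SD, n = 2 each). It fell in shUCHL1 by 1.28 on the log2 scale (SE 0.12, 2.43-fold lower, edgeR adjusted p = 8.70e-04). In shHSPA8 the log2 fold change was -0.12 (SE 0.11, 95% interval -0.39 to 0.15), with an edgeR adjusted p of 0.531. Between the knockdown lines THY1 was 2.23-fold lower in shUCHL1 than in the shHSPA8 line (log2 fold change -1.15, SE 0.12, edgeR adjusted p = 0.00190). Its calls in shUCHL1, against shCON and against shHSPA8, held in 12 of 12 alternatives each. Of the 17 myoid cell and fibroblast markers, 4 rose and 7 fell in shUCHL1, against 8.54% and 7.15% of all tested genes, and 7 rose and 2 fell in shHSPA8, against 8.66% and 6.02%, with the summed levels given above. The members that fell in shUCHL1 were contractile genes such as ACTA2 (-1.58, SE 0.12), and the part of these in the lower THY1 level was not tested.

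ITGA6, the laminin receptor subunit, had 12.5 and 11.6 FPKM in shUCHL1, 18.6 and 21.9 FPKM in shHSPA8, and 17.8 and 12.7 FPKM in shCON. Its shCON libraries lay apart from each other, between those of shUCHL1 below and shHSPA8 above. Neither difference from shCON passed the test: the log2 fold change was -0.42 in shUCHL1 (SE 0.17, edgeR adjusted p = 0.157) and 0.43 in shHSPA8 (SE 0.17, edgeR adjusted p = 0.145). The shCON libraries decided these values, since without shCON replicate 2 the shUCHL1 difference was called (-0.65, edgeR adjusted p = 0.0181) and without shCON replicate 1 the shHSPA8 difference was called (0.68, edgeR adjusted p = 0.0156). Directly compared, ITGA6 was 1.81-fold lower in shUCHL1 than in the shHSPA8 line (log2 fold change -0.85, SE 0.17, edgeR adjusted p = 0.0199). This call was lost without shUCHL1 replicate 1 or 2 or shHSPA8 replicate 2 (edgeR adjusted p = 0.112, 0.141 and 0.0843). Its partner ITGB1, the beta-1 integrin, fell in shUCHL1 (-0.63, SE 0.13, edgeR adjusted p = 0.0164), a call lost without either shUCHL1 library (edgeR adjusted p up to 0.110). Of 11 tested partners of ITGA6 and other tetraspanins, none rose and 3 fell in shUCHL1 (ITGB1, LAMA5 and TSPAN4), where 15.7% of all tested genes changed, and 2 rose (TSPAN3 and PTGFRN) and 1 fell (LAMA5) in shHSPA8, where 14.7% did.

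EPCAM, the epithelial adhesion molecule that is also found on spermatogonia, had 47 and 45 counts in shUCHL1, 18 and 18 in shHSPA8, and 23 and 17 in shCON. Both shUCHL1 libraries lay above all others, at 1.05 and 0.99 FPKM, and shHSPA8 lay within the shCON range. EPCAM rose in shUCHL1 by a log2 fold change of 1.16 (SE 0.24, 2.23-fold, edgeR adjusted p = 0.0198). In shHSPA8 the log2 fold change was -0.11 (SE 0.28, edgeR adjusted p = 0.854). Between the knockdown lines EPCAM was 2.41-fold higher in the shUCHL1 line than in shHSPA8 (1.27, SE 0.25, edgeR adjusted p = 0.0175). The shUCHL1 call was lost in DESeq2 (DESeq2 adjusted p = 0.158) and, by edgeR adjusted p, without shUCHL1 replicate 1 (0.148), shUCHL1 replicate 2 (0.117) or shCON replicate 2 (0.0769). The call between the knockdown lines was lost in DESeq2 (DESeq2 adjusted p = 0.105) and, by edgeR adjusted p, without shUCHL1 replicate 1 (0.140), shUCHL1 replicate 2 (0.109), shHSPA8 replicate 1 (0.108) or shHSPA8 replicate 2 (0.0820). Of 16 epithelial markers 4 were tested. In shUCHL1 the cadherin CDH1 rose, with 20 summed counts against 2 in shCON. So did the splicing regulator ESRP1, with 45 against 3. The keratins KRT8 and KRT18 fell in shUCHL1. In shHSPA8 none of the 4 rose, and KRT8 (-1.73 on the log2 scale) and KRT18 fell there too. Of all tested genes, 15.7% changed in shUCHL1 and 14.7% in shHSPA8. CDH1 and ESRP1 passed the low-count filter only through the shUCHL1 libraries, where they are high, and their calls are a description only. The CDH1 call was lost with DESeq2 (adjusted p = 0.142) and, by edgeR adjusted p, without shUCHL1 replicate 1 (0.0848), shUCHL1 replicate 2 (0.0802) or shCON replicate 2 (0.0611). The list summed to 2.19 to 2.75 FPKM in shUCHL1, 4.84 to 5.55 FPKM in shHSPA8 and 15.2 to 17.1 FPKM in shCON, and its part in the EPCAM difference was not tested.

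CD9, a tetraspanin of the plasma membrane, had 241 and 256 FPKM in shUCHL1, 242 and 233 FPKM in shHSPA8, and 213 and 213 FPKM in shCON. Every knockdown library lay above both shCON libraries, and the knockdown lines overlapped. The difference was small: the log2 fold change was 0.16 in shUCHL1 (95% interval -0.03 to 0.35) and 0.16 in shHSPA8 (95% interval -0.03 to 0.35), with edgeR adjusted p of 0.242 and 0.246. Its replicates differed little, and its highest library was 1.20 times its lowest in FPKM, the smallest such ratio of the 10 genes, against 6.50 for RET, the largest.

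**Figure D3:**
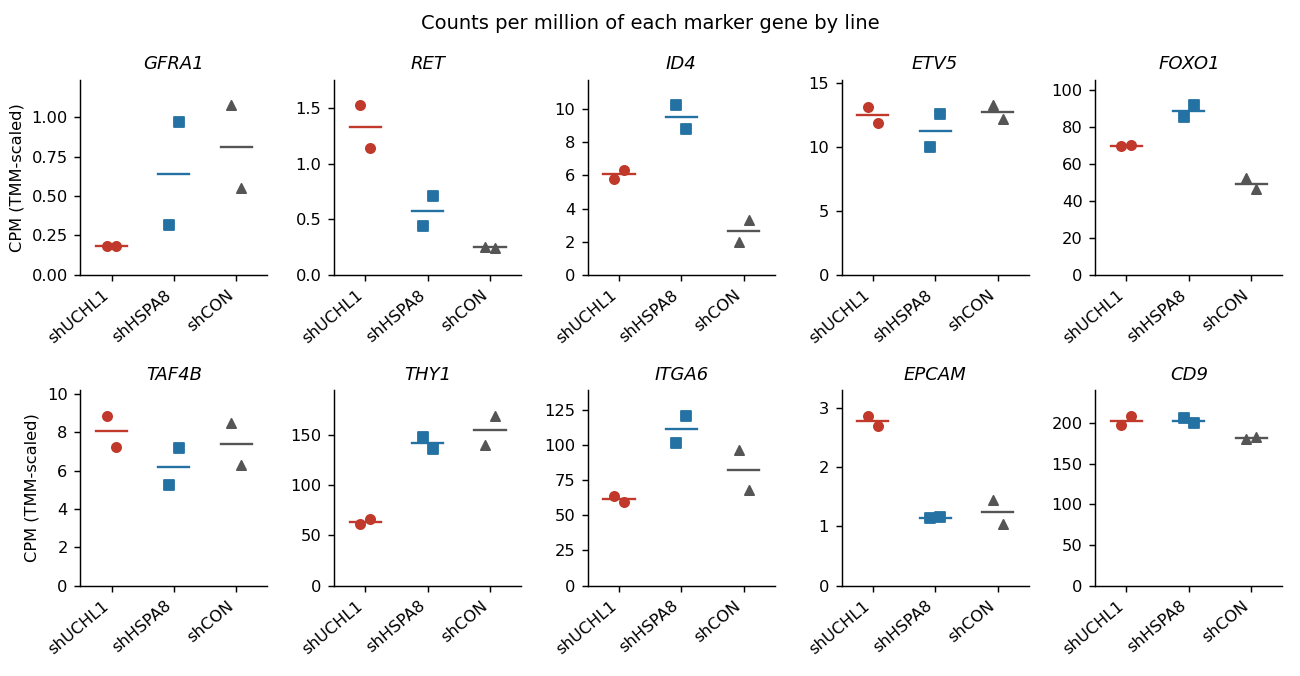
CPM (TMM-scaled counts, linear axes starting at 0) of each gene, with 2 libraries per line as points and the line mean as a bar. ID4 and FOXO1 are higher in each knockdown line than in shCON, THY1 is lower in shUCHL1, and the shCON libraries of ITGA6 lie apart at 96.6 and 68.3 CPM.

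Counted together, 5 of the 10 genes changed in shUCHL1 against shCON, 4 higher (RET, ID4, FOXO1 and EPCAM) and 1 lower (THY1). Of all tested genes, 15.7% changed there, 8.54% higher and 7.15% lower. RET is counted as a description only, since it passed the low-count filter mainly through the shUCHL1 libraries. In shHSPA8 against shCON, 2 of 10 changed, ID4 and FOXO1, both higher, where 14.7% of all tested genes changed, 8.66% higher and 6.02% lower. Between shUCHL1 and shHSPA8, 3 of 10 differed, EPCAM higher and THY1 and ITGA6 lower in shUCHL1, where 14.6% of all tested genes differed, 6.20% higher and 8.35% lower in shUCHL1. The median log2 fold change of the 10 genes was 0.14 in shUCHL1, 0.02 in shHSPA8 and -0.17 between the lines, against 0.01, -0.003 and 0.02 over all tested genes. The libraries of the lines did not overlap for 8 of 10 genes in shUCHL1 against shCON (56.5% of all tested genes), 5 of 10 in shHSPA8 against shCON (51.0%) and 8 of 10 between the knockdown lines (65.7%). The comparisons with shCON share the same control libraries, so ID4 and FOXO1 rising in each of them is not 2 independent observations. Between the knockdown lines, ID4 (-0.65, SE 0.21, edgeR adjusted p = 0.0872) and FOXO1 (-0.34, SE 0.10, edgeR adjusted p = 0.0648) did not pass the test. Fitted on the libraries of those lines alone, where the shCON spread plays no part, they did pass, with edgeR adjusted p of 0.0207 and 0.0241.

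**Figure D4:**
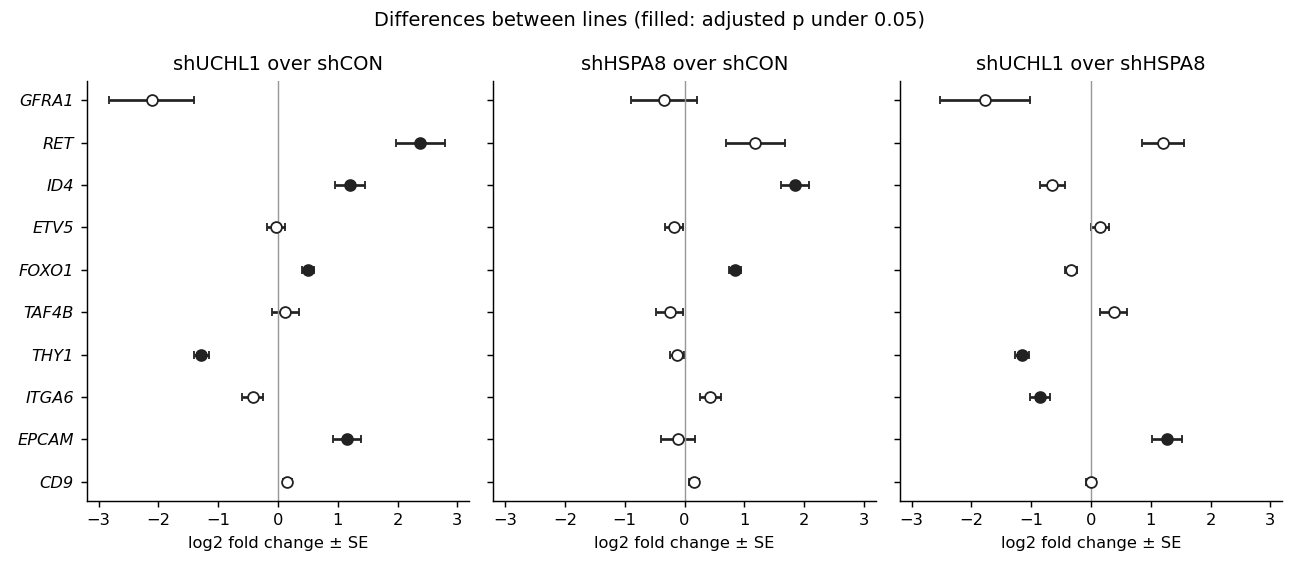
Log2 fold change ± SE of each gene in the 3 comparisons, with the first-named line over the other. Filled points passed an edgeR adjusted p of 0.05: 5 genes in shUCHL1 over shCON, 2 in shHSPA8 over shCON and 3 in shUCHL1 over shHSPA8.

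**Figure D5:**
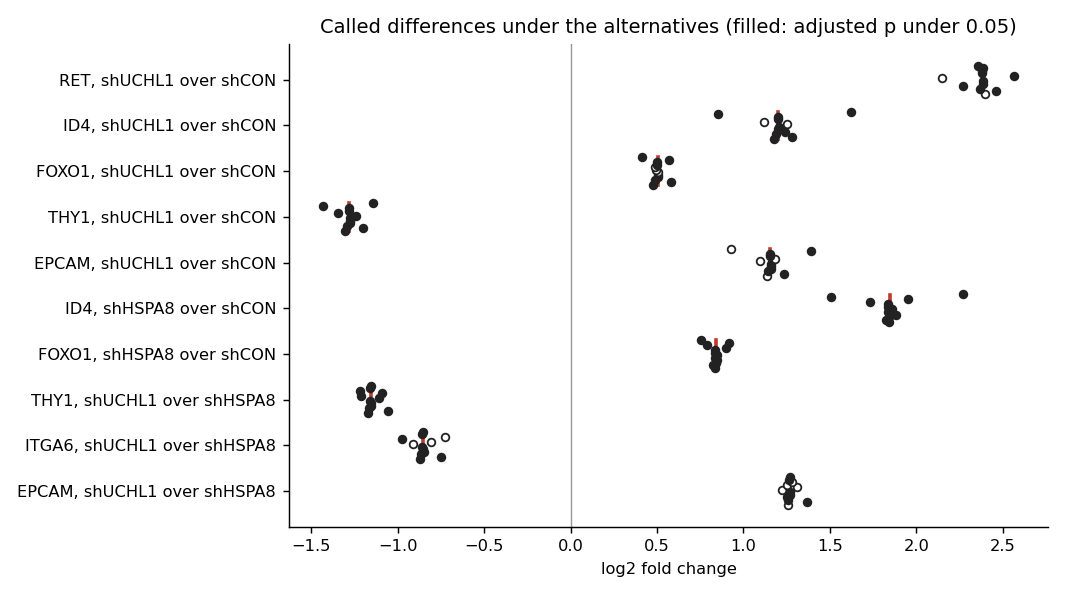
Log2 fold changes of the 10 called differences (red bar) and of their alternatives (points, filled where the adjusted p stayed under 0.05). THY1 in its 2 comparisons and ID4 and FOXO1 in shHSPA8 stay filled throughout, and the EPCAM, ITGA6 and RET differences and the shUCHL1 rises of ID4 and FOXO1 do not.

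The authors' deposited table gives its own log2 ratios and p-values, with no test or adjustment named. In the authors' deposited table, 7 of the 10 genes have a p under 0.05 in shUCHL1 over shCON, where 16.8% of its genes with a p do, and 3 of 10 in shHSPA8 over shCON, where 14.0% do. The additional genes are GFRA1 (log2 ratio -2.18, p = 0.0468) and ITGA6 (-0.44, p = 0.0146) in shUCHL1, and ITGA6 (0.42, p = 0.0373) in shHSPA8, all in the authors' deposited table. Their unadjusted p in the edgeR fit was 0.0204, 0.0441 and 0.0387, so they lie under 0.05 there too before adjustment. In the authors' deposited table for shHSPA8 over shUCHL1, which runs opposite to the direct comparison above, 5 of 10 have a p under 0.05, where 21.5% of its genes with a p do. They are THY1, ITGA6 and EPCAM, and also ID4 (log2 ratio 0.66, p = 0.0175) and FOXO1 (0.36, p = 0.00335) in the authors' deposited table.

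RET was the gene of the 10 whose line means ranged most widely, by 1.95 on the log2 CPM scale. The tested genes whose centred log2 CPM lay nearest to it over the 6 libraries were FAM3B and PLCG2, with root-mean-square differences of 0.10 and 0.16, against a median of 0.84 over all tested genes. FAM3B had 13 and 12 counts in shUCHL1, 4 and 6 in shHSPA8, and 2 and 2 in shCON. PLCG2, a phospholipase, had 125 and 122 counts in shUCHL1, 55 and 61 in shHSPA8, and 33 and 32 in shCON. Being chosen for likeness, these genes share the order of the lines with RET by construction, and FAM3B passed the low-count filter only through the shUCHL1 libraries.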

How the data were processed

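The deposited data are 1 table for 6 messenger RNA libraries of goat cells, made from total RNA with a SMARTER kit per the labels' protocols. The submitters' processing notes name Trimmomatic 0.36. For the aligner, counting tool, genome build and strandedness, the record is: not given in the sources used here. The table has 33229 entries, of which 16599 carry values, and blank entries were not used. Per the file headers, the authors deposited an FPKM value and a read count per library. Between 1014 and 1117 genes per library have fractional read counts, so these are handled under the unit expected counts, that is estimated counts, and were rounded. Per the file headers, the authors also deposited line means of the expected counts, log2 ratios and p-values.

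Levels are deposited FPKM, which alone compare genes with each other. Differences were tested with edgeR 4.0.16 in R 4.3.3 (glmQLFit and glmQLFTest, filterByExpr, TMM), with group as the only term, all 6 libraries sharing 1 estimate of the spread, and Benjamini-Hochberg adjustment over 12665 genes per comparison. A gene past an adjusted p of 0.05 is called changed. The SE is the log2 fold change divided by the square root of F. The method was tested on simulated data. Alternatives used DESeq2 1.42.0, limma-voom (limma 3.58.1), other scalings, no filter, 2 lines only, a replicate block and each library left out. Named genes are the 10 genes, the targeted genes, up to 4 called genes with the largest change per list and at least 20 counts, genes with counts in the GDNF and germ cell lists, and the 3 nearest neighbours of the gene with the widest range, of which 1 is not reported here; not all are described. Genes of short lists named outside that rule, and ID1, ID2, ID3, ETV1 and ETV4 as relatives of ID4 and ETV5, were chosen after their values were seen. The genes and lists were chosen with earlier results of these data known. Gene IDs were found in the RefSeq table of assembly ARS1.2, used only for names, for 2 older symbols and for gene overlap. No sequences or coordinates are given, because no genome of the files' build was used here.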

Additional observations from a re-analysis of the deposited data

Results flagged for a closer look

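Of the 10 genes, 3 differed between the shUCHL1 and shHSPA8 lines in the direct test. ITGA6 passed the test against shCON in neither line, and THY1 and EPCAM passed it in shUCHL1 and not in shHSPA8. THY1 had a log2 fold change of -1.15 in shUCHL1 over shHSPA8, with levels of 37.7 and 40.2 FPKM in shUCHL1 against 86.0 and 77.9 FPKM in shHSPA8. ITGA6 had a log2 fold change of -0.85 in shUCHL1 over shHSPA8, with 12.5 and 11.6 FPKM in shUCHL1 against 18.6 and 21.9 FPKM in shHSPA8. EPCAM had a log2 fold change of 1.27 in shUCHL1 over shHSPA8, with 1.05 and 0.99 FPKM in shUCHL1 against 0.39 and 0.40 FPKM in shHSPA8. THY1 kept its call in 12 of 12 alternatives, ITGA6 in 9 of 12 and EPCAM in 7 of 12.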

How the results depend on the processing

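With 2 libraries per line, calls near the threshold were often lost when 1 library was left out. Such a fit leaves a line with 1 library, so a lost call need not mean a changed difference. In shUCHL1 against shCON, the log2 fold change over the alternatives ran from 0.41 to 0.58 for FOXO1 and from 0.85 to 1.62 for ID4. Over 12 alternatives and the differences of the 10 genes, 312 of 357 values kept their direction and side of the threshold, 19 lost the call, 9 gained it and 17 changed sign. All sign changes were of differences that were not called. RET and GFRA1, with at most 25 counts per library, are limited by depth.

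Of the 10 genes, 3 were called in shUCHL1 against shCON with DESeq2, and 1 to 5 when 1 library was left out (1 without shUCHL1 replicate 1). In shHSPA8 against shCON the count without 1 library was 2 to 3. Between the knockdown lines 5 were called with only those 2 lines fitted, and 1 to 5 without 1 library. Among all genes, 1987 were called in shUCHL1 against shCON, against 528 to 2615 without 1 library. In shHSPA8 against shCON 1859 were called, 1104 with only the 2 lines compared, and 920 to 2416 without 1 library. Between the knockdown lines 1843 were called, 3116 with only the 2 lines compared, and 257 to 3083 without 1 library.

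The replicate numbers did not pair the libraries in 1 direction. Deviations of same-numbered libraries correlated across genes at 0.23 for shCON and shUCHL1, -0.54 for shCON and shHSPA8, and -0.23 for shUCHL1 and shHSPA8. By the value of -0.54, genes higher in shCON replicate 1 tended to be higher in shHSPA8 replicate 2. The origin of this shared variation was not tested, and a block on the replicate numbers does not model it. With a replicate block, 1230 genes were called in shUCHL1 against shCON, 1131 in shHSPA8 against shCON and 923 between the knockdown lines, and of the 10 genes only FOXO1 in shUCHL1 lost its call (log2 fold change 0.50, edgeR adjusted p = 0.0577). Of the other genes refitted, GDNF, SDC3, MAEL and HSPA8 in shUCHL1 against shCON and GDNF, GAS1 and ID3 between the knockdown lines lost theirs with the block. Genes named only within a list's count, such as PIK3R1, DOK4 and EGR3, were not followed through the alternatives.

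Scaling by library size alone moved the median log2 fold change of all genes between the knockdown lines to 0.12, against 0.02, and the calls higher in shUCHL1 to 64.4%, against 42.6%. RET then passed between the lines (1.30, edgeR adjusted p = 0.0449). In shUCHL1 against shCON, 68.1% of calls were higher with that scaling, against 54.5%.

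Log2 fold changes that changed sign were small in the main fit, the largest in size being -0.34 for GFRA1 in shHSPA8. That of GFRA1 also spread widely over the alternatives. ETV5 in shUCHL1 was 0.052 with library size only and -0.11 to 0.029 without 1 library, and TAF4B in shUCHL1 was -0.079 to 0.33 without 1 library. In shHSPA8, leaving out 1 library gave -1.34 to 0.26 for GFRA1, -0.27 to 0.014 for THY1 and -0.34 to 0.12 for EPCAM. Between the knockdown lines it gave -0.015 to 0.32 for ETV5 and -0.045 to 0.039 for CD9, and CD9 was -0.014 with DESeq2, -0.0087 without the low-count filter and -0.0011 with only the 2 lines. The cause of each sign change was not tested.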
